A study of Mus musculus with 6 samples.

Results

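Basal identity and terminal differentiation of the epidermis are directed by a small set of transcription factors, and 8 of them were examined in cultured mouse keratinocytes lacking *Sox4*, *Sox11* or both. The 8 genes were *Trp63*, *Klf4*, *Klf5*, *Gata3*, *Tfap2c*, *Ovol1*, *Grhl1* and *Grhl3*. They were found by the RefSeq accession of the array probes, as 9 probes of 8 genes among 55681 probes tested, of which 28331 could be named to 21368 genes. *Trp63* had 2 probes and every other gene had 1. The rule used gene names and no measured value, but the 8 genes were chosen with earlier results of these data known.

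Sox4cKO, Sox11cKO and Sox4/11 dcKO (double conditional knockout) primary keratinocytes were each compared with wild-type control keratinocytes on 2-colour Agilent arrays, with 2 biological replicates and so 2 arrays per genotype. Both channels came from skin of newborn pups on a 129SvEx:C57BL/6 background per the labels, and no treatment is named. *Krt14-Cre* mice of the FVB/N strain supplied the deletion, which therefore takes place in keratin-14-positive cells, and the floxed founders also carried *Sox12*-/-, without a statement on whether that allele was kept. Cells had been grown on mouse J2 fibroblast feeders and then passaged without them, and it is not labelled which arrays, if any, shared a wild-type culture. P-values measure the spread between these arrays, which may in part be technical, and the number of arrays limits the precision of every value.

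Stratified epidermis is renewed by basal cells, which divide and then leave the basement membrane to differentiate into the spinous, granular and cornified layers. p63, encoded by *Trp63*, maintains the basal state and epidermal commitment, and the factors GATA3, KLF4, OVOL1, GRHL1 and GRHL3 are known for roles in lineage choice, exit from proliferation, cell adhesion and barrier formation. SOX4 and SOX11 are SoxC family factors of the embryonic epidermis, and the arrays address which keratinocyte genes depend on either of them.

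The labels held for the deleted genes. The log2 ratio of knockout over wild type for *Sox4* was -2.52 in Sox4cKO (limma adjusted p = 0.00400) and -2.52 in dcKO cells (adjusted p = 0.00106), and that for *Sox11* was -2.98 in Sox11cKO (adjusted p = 0.0417) and -3.43 in dcKO cells (adjusted p = 0.00664). The remaining SoxC gene, *Sox12*, was well above background in 0 of 12 channels. All 8 keratinocyte markers were well above background in all 12 channels, with a summed linear level of 234100 to 329400 in Sox11cKO, 378900 to 415300 in Sox4cKO, 357700 to 397900 in dcKO and 260300 to 505700 in wild-type channels. Of 9 fibroblast markers, 0 to 2 were well above background in a group's channels and *Col1a1*, *Col3a1*, *Pdgfrb*, *Thy1*, *Lum* and *Postn* in none, with a summed level of 277.5 to 329 in knockout and 267.6 to 299.5 in wild-type channels. Of 7 melanocyte markers 2 to 4 were, with *Dct*, *Tyrp1* and *Kit* in none, and their summed level was 345.5 to 549.3 in knockout and 322.8 to 1185 in wild-type channels. Of 7 immune markers 1 to 2 were, with *Cd207*, *Tyrobp* and *Aif1* in none, and their summed level was 701.1 to 1086 in knockout and 658.3 to 827.1 in wild-type channels. Of the markers of these other cell types, *Mitf* and *Cd3e* were well above background in 12 channels. *Col1a2*, *Pmel* and *Mlana* were so in 11, *Tyr* in 8, *H2-Ab1* in 6, and *Pdgfra*, *Dcn*, *Ptprc* and *Cd74* in 1. The MHC class II gene *H2-Ab1* was higher in Sox4cKO (log2 1.80, adjusted p = 0.0119) and in dcKO cells (at least 1.67-fold, adjusted p = 0.0446, with wild type not well above background). The part of other cells in the results below was not tested.

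All 9 probes of the 8 factors were well above background in all 12 channels, so each ratio rests on signal from both cell populations. None of the 8 genes passed an adjusted p below 0.05 (limma with Benjamini-Hochberg adjustment over all probes) in Sox4cKO, Sox11cKO or dcKO cells, against 0.176%, 0.124% and 2.06% of all probes. Of the 17800 probes well above background in every channel, as these are, 0.326%, 0.14% and 4.76% passed. At an unadjusted p below 0.05 there were 2 of 8 in Sox4cKO (*Klf5* and *Gata3*), 3 in Sox11cKO (*Klf4*, *Grhl3* and *Gata3*) and 2 in dcKO cells (*Trp63* and *Grhl1*), against 7.4%, 6.84% and 13% of all probes. The median log2 ratio over the 8 genes was 0.16, 0.09 and -0.11 in Sox4cKO, Sox11cKO and dcKO cells, beside medians over all probes of 0.00, 0.00 and 0.00. On a scale of absolute size the median over the 8 was 0.21, 0.38 and 0.30, beside 0.17, 0.16 and 0.25 over the 17800 probes that were well above background in every channel. With 2 arrays per genotype the 95% confidence intervals of single ratios reached from 0.37 to 0.90 log2 units on either side of the mean, which leaves room for changes below that size.

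**Figure D1:**
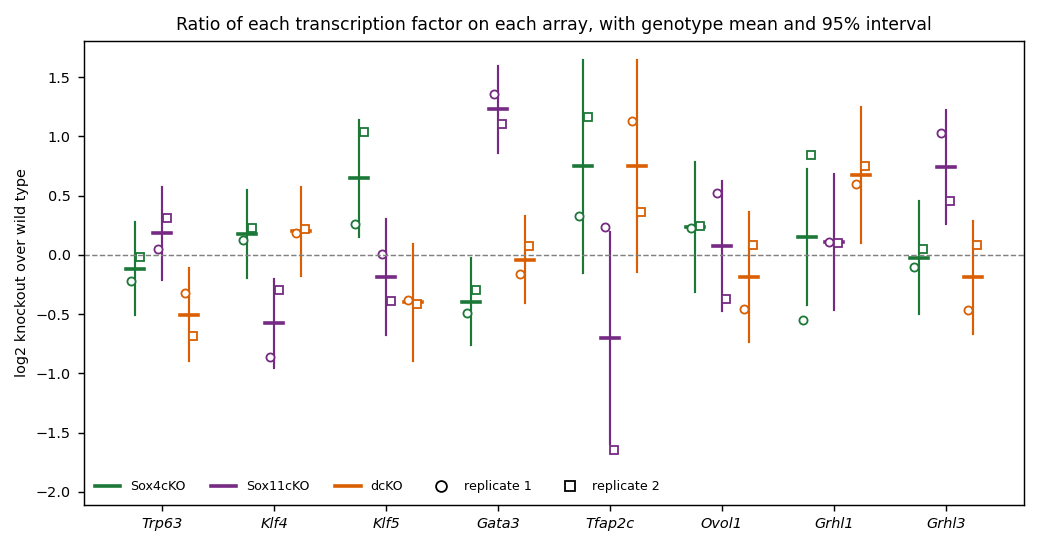
Log2 ratio of knockout over wild type (y axis) for each of the 8 transcription factors (x axis) in Sox4cKO, Sox11cKO and dcKO cells; open circles and squares are the arrays of replicate 1 and 2, thick bars the mean of 2 arrays and thin lines the 95% confidence interval of the limma model. *Gata3* in Sox11cKO cells sits highest, at 1.36 and 1.104, and the arrays of *Tfap2c* lie farthest apart, at 0.24 and -1.65 in Sox11cKO cells.

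The GATA factor *Gata3*, which acts in hair follicle and epidermal lineage decisions, had the largest ratio among the 8 genes. For orientation, the promoter window of *Gata3* that RefSeq lists on GRCm38.p6 is printed from 250 bases before to 50 bases after the annotated start, on the minus strand at chr2:9878551-9878850, because this gene had the lowest adjusted p among the 8.
Gata3: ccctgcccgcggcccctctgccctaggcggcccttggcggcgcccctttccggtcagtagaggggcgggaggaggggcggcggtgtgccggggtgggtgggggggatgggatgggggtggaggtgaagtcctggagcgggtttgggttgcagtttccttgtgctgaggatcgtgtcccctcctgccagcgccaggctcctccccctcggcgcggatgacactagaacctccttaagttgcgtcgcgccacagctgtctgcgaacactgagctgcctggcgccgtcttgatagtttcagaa
The SOX core letters ACAAT and the SOX and TCF letters ACAAAG were searched on both strands in the 5 windows that RefSeq lists for *Gata3*, *Klf4*, *Grhl3* and *Grhl1*. Neither was present in any of the 5 windows, and no capitals are therefore marked in the sequence. Of all 32851 windows of the same length, 31.0% held the first and 18.7% the second. With 5 windows these shares allow no statement on a lack of such letters. The search describes letters in 300 bases only. The *Gata3* window was 67.3% G and C with 22 CpG dinucleotides, beside medians of 52.7% and 7 over all windows. The *Klf4* window was 74.3% G and C, that of *Grhl3* 58.3%, and those of *Grhl1* 75.3% and 51.3%.

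On Sox11cKO arrays the *Gata3* level was 8.40 and 8.53 in knockout channels and 7.04 and 7.42 in their wild-type partners, on the log2 scale of normalised intensity. Both ratios were positive, and the mean log2 ratio was 1.23 (SE 0.16, 95% confidence interval 0.86 to 1.60), or 2.35-fold, with an unadjusted p of 8.201e-05 and an adjusted p of 0.0593. Among the 17800 bright probes, 98.8% had a smaller absolute ratio in this comparison. The ratio was positive in all 15 other settings tried and passed the threshold in 3 of them. These were the authors' own table of log2 ratios (1.23, adjusted p = 0.00696), which called 533 of 55681 probes in this comparison against 69 here, the dye effect subtracted before the fit (1.23, adjusted p = 0.0458, 77 probes called), and the fit without Sox11cKO replicate 2 (1.46, adjusted p = 0.0440, 192 probes called). In the other 12 the adjusted p ran from 0.0776 to 0.564. An offset of 50, the processed ratio, the mean of a gene's probes and the Sox11cKO arrays alone were among these 12. They called 0 probes in this comparison, so no gene could pass there. Without Sox11cKO replicate 1 the log2 ratio was 1.00. A genotype left with 1 array is assumed to vary like the others.

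In Sox4cKO cells the *Gata3* levels were 8.22 and 8.27 in knockout and 8.71 and 8.57 in wild-type channels, with a mean log2 ratio of -0.39 (SE 0.16, unadjusted p = 0.0396, adjusted p = 0.646). In dcKO cells they were 8.10 and 8.51 beside 8.26 and 8.43, with a mean ratio of -0.04 (SE 0.16, adjusted p = 0.964). After scaling between arrays, *Gata3* in knockout channels of all 3 genotypes lay in a narrow band, from 8.10 to 8.53. The band depends on the scaling, which moved the wild-type level of dcKO replicate 1 from 7.74 to 8.26 and its knockout level alike. Unscaled knockout levels were not compared. On the scaled levels, the low values were the wild-type channels of the Sox11cKO arrays. The other 4 wild-type channels ranged from 8.26 to 8.71, a range that holds both Sox11cKO levels, and the mean Sox11cKO level was 0.03 below their mean. The wild-type partners on the Sox11cKO arrays were 1.26 lower than the other wild-type channels, and 1.05 lower without any scaling between arrays, where the other wild-type channels ranged from 7.74 to 8.76. This comparison across arrays was chosen after the values were seen and carries no test. The origin of the wild-type RNA on those arrays was not given beyond its genotype, and its part in the ratio was not tested.

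**Figure D2:**
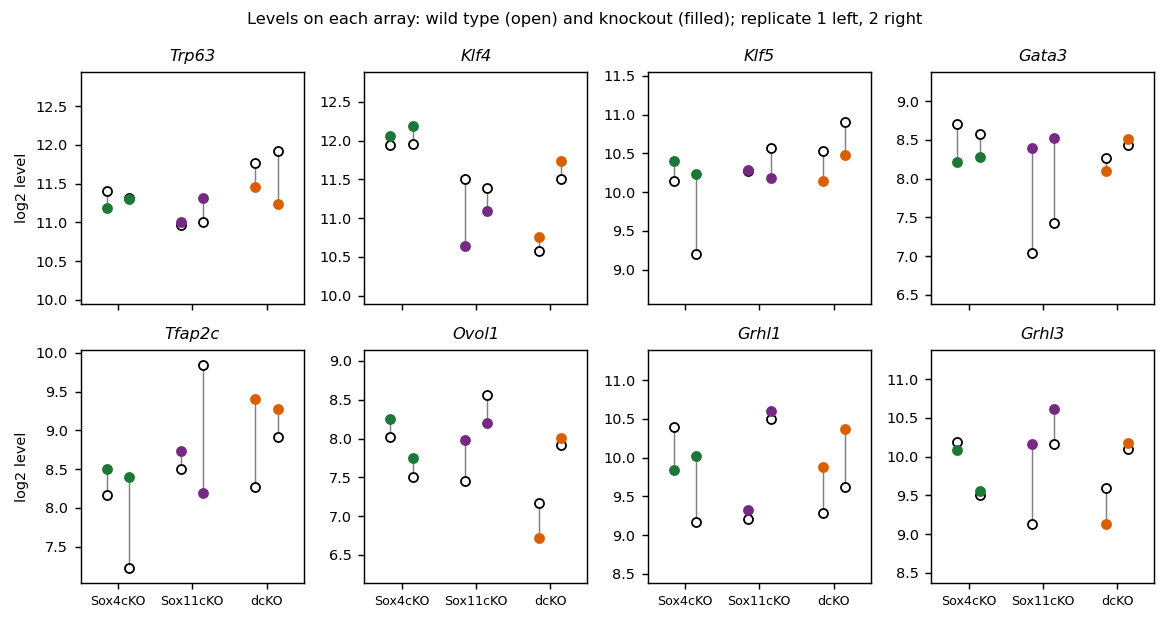
Normalised log2 level (y axis, 3 log2 units in every panel) of each factor on the 2 arrays of each genotype (x axis, replicate 1 left and replicate 2 right); filled points are knockout channels, open points the wild-type channels of the same arrays, and lines join the channels of an array. For *Gata3* and *Klf5* the filled points stay level after scaling between arrays, from 8.10 to 8.53 and from 10.1 to 10.5, while the open points vary more.

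The p53 family member *Trp63* was measured by 2 probes, and neither passed the threshold in any genotype. On dcKO arrays the brighter probe (A_51_P216550) gave levels of 11.45 and 11.24 in knockout and 11.77 and 11.92 in wild-type channels, so that both ratios were negative. The mean log2 ratio was -0.50 (SE 0.17, 95% confidence interval -0.90 to -0.11, unadjusted p = 0.0188, adjusted p = 0.233). In Sox4cKO cells the brighter probe stood at 11.19 and 11.30 beside 11.41 and 11.31 in wild type, a mean ratio of -0.12 (adjusted p = 0.928).

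In Sox11cKO cells the brighter *Trp63* probe stood at 11.01 and 11.32 beside 10.96 and 11.01, a mean ratio of 0.18 (adjusted p = 0.953). The second probe (A_55_P2161055) had mean log2 ratios of 0.05, -0.04 and -0.02 in Sox4cKO, Sox11cKO and dcKO cells, with adjusted p from 0.973 to 0.995. Its interval in dcKO cells, -0.39 to 0.35, overlapped that of the brighter probe, and the difference between the probes was not tested. *Trp63* is transcribed into isoforms with different ends, and which of them each probe reads was not determined here. Across arrays, the knockout levels of the brighter probe spanned 11.01 to 11.45, and its 2 wild-type channels on dcKO arrays stood above the other 4, which ranged from 10.96 to 11.41.

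The Krüppel-like factors act on different sides of the balance, *Klf5* in proliferating basal cells and *Klf4* in barrier formation of the upper layers. On Sox4cKO arrays *Klf5* stood at 10.40 and 10.24 in knockout and 10.14 and 9.20 in wild-type channels. Both ratios were positive but unequal, at 0.26 and 1.03, with a mean of 0.65 (SE 0.21, unadjusted p = 0.0169, adjusted p = 0.536). In dcKO cells the levels were 10.14 and 10.48 beside 10.53 and 10.90, a mean ratio of -0.40 (95% confidence interval -0.89 to 0.09, adjusted p = 0.522).

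In Sox11cKO cells *Klf5* stood at 10.29 and 10.18 beside 10.28 and 10.57, a mean ratio of -0.19 (adjusted p = 0.974). As for *Gata3*, the 6 knockout channels of *Klf5* varied little after scaling between arrays, with an SD of 0.13, against 0.58 in the 6 wild-type channels. A wild-type SD that exceeded the knockout SD by as much or more was found in 0.309% of the bright probes for *Klf5* (4.53 times), in 0.613% for *Gata3* (3.95 times) and in 3.27% for *Trp63* (2.64 times), genes picked here for this pattern. The wild-type SD was the larger for 5 of the 8 genes and for 53.5% of all bright probes, and no test was made of this. All these SDs depend on the scaling between arrays, and they were not computed on unscaled levels. For *Gata3* the SD of the wild-type channels outside the Sox11cKO arrays was 0.19 with scaling and 0.46 without.

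*Klf4* had its largest ratio in Sox11cKO cells, with levels of 10.64 and 11.09 in knockout and 11.50 and 11.39 in wild-type channels. Both ratios were negative, with a mean log2 ratio of -0.58 (SE 0.16, 95% confidence interval -0.95 to -0.20, unadjusted p = 0.00781, adjusted p = 0.404). In Sox4cKO cells *Klf4* stood at 12.06 and 12.19 beside 11.94 and 11.96, a mean ratio of 0.18 (adjusted p = 0.872). In dcKO cells the levels were 10.76 and 11.73 beside 10.58 and 11.51. There the 2 arrays differed by about as much in wild type as in knockout, and the ratio was 0.20 (adjusted p = 0.734).

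When each dcKO array was centred on its median in place of loess, the 17800 bright probes had medians of -0.28 and -0.63 on the 2 dcKO arrays, a mean shift of -0.46, whereas loess left them at 0.00 and -0.02. Under median centring 5483 of 55681 probes were called in dcKO cells against 1145 here, the ratio of *Trp63* was -1.05 (adjusted p = 0.00989) and that of *Klf5* -0.95 (adjusted p = 0.0395), while *Klf4* turned to -0.37 (adjusted p = 0.231).

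*Tfap2c*, which encodes AP-2γ, a factor of early surface ectoderm and keratinocyte commitment, had the widest range of wild-type levels among the 8 genes, 2.61 log2 units. On Sox11cKO arrays its levels were 8.73 and 8.19 in knockout and 8.50 and 9.84 in wild-type channels, so that the ratios had opposite signs. The mean log2 ratio was -0.70 (SE 0.38, adjusted p = 0.840), and the SD of 1.33 between the arrays exceeded that mean.

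In Sox4cKO cells *Tfap2c* stood at 8.50 and 8.40 beside 8.17 and 7.23, a mean ratio of 0.75 (adjusted p = 0.741). In dcKO cells its levels were 9.41 and 9.28 beside 8.28 and 8.92, a mean of 0.75 (95% confidence interval -0.15 to 1.64, adjusted p = 0.504). Knockout lay above wild type on all 4 of these arrays, although without Sox4cKO replicate 2 the dye-adjusted ratio in Sox4cKO cells was -0.33, and without replicate 1 it was 1.83. The 2 dcKO levels were the highest of the 6 knockout channels, and the wild-type channels ranged from 7.23 to 9.84.

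The grainyhead-like factors *Grhl1* and *Grhl3* control desmosomal adhesion and barrier genes. On dcKO arrays *Grhl1* stood at 9.88 and 10.37 in knockout and 9.28 and 9.62 in wild-type channels, and both ratios were positive. The mean log2 ratio was 0.67 (SE 0.25, 95% confidence interval 0.10 to 1.25, unadjusted p = 0.0274, adjusted p = 0.283). In Sox4cKO cells the levels were 9.84 and 10.02 beside 10.39 and 9.17, so that the arrays gave opposite signs and a mean of 0.15 (adjusted p = 0.942).

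On Sox11cKO arrays *Grhl1* stood at 9.32 and 10.60 beside 9.21 and 10.50. Knockout and wild type moved together between those arrays, and both ratios were near 0.10 (mean 0.11, adjusted p = 0.991). *Grhl3* on the same arrays stood at 10.16 and 10.62 in knockout and 9.13 and 10.17 in wild-type channels, a mean ratio of 0.74 (SE 0.20, 95% confidence interval 0.26 to 1.22, unadjusted p = 0.00765, adjusted p = 0.401). Knockout was the higher on both arrays, although the lower knockout value lay just under the higher wild-type value.

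In Sox4cKO cells *Grhl3* stood at 10.09 and 9.56 beside 10.19 and 9.50, a mean ratio of -0.02 (adjusted p = 0.991). In dcKO cells it stood at 9.13 and 10.18 beside 9.59 and 10.10, a mean of -0.19 (adjusted p = 0.823). Neither pair of arrays had ratios of the same sign.

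*Ovol1*, a zinc finger repressor that acts as keratinocytes stop dividing, had mean ratios within 0.24 of 0 in all 3 genotypes. In Sox4cKO cells it stood at 8.25 and 7.75 beside 8.02 and 7.50, a mean log2 ratio of 0.24 (adjusted p = 0.890). In Sox11cKO cells it stood at 7.98 and 8.20 beside 7.45 and 8.56, a mean of 0.08 (adjusted p = 0.993). In dcKO cells it stood at 6.72 and 8.003 beside 7.17 and 7.92, a mean of -0.19 (adjusted p = 0.855). The arrays of Sox11cKO and dcKO gave opposite signs, and both channels of dcKO replicate 1 were the lowest of their kind. Across the 12 channels the levels of *Ovol1* and *Grhl3* had a Pearson r of 0.83, the highest of 28 pairs and a description over channels that share arrays, and their 6 ratios one of 0.54.

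**Figure D3:**
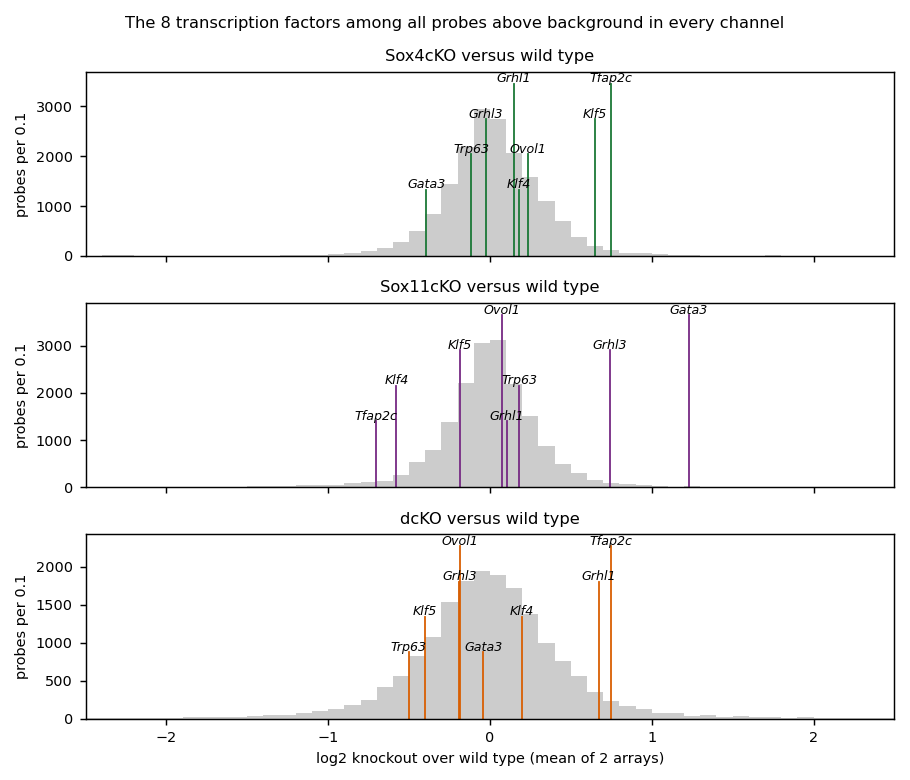
Distribution of log2 ratios (x axis) of the 17800 probes above background in every channel (grey bars, probes per bin on the y axis), for each genotype against wild type; coloured lines mark the 8 factors and their height has no meaning. *Gata3* lies in the upper tail in Sox11cKO cells at 1.23, and in dcKO cells all 8 lie between -0.50 and 0.75.

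The log2 ratios of the genotypes were then set against each other within the same fit. Each difference therefore also rests on the wild-type channels of the arrays. In each of the 3 contrasts 0 of 8 genes passed the adjusted threshold. That stood against 0.673% of all probes for dcKO minus Sox4cKO, 0.481% for dcKO minus Sox11cKO and 0.0108% for Sox4cKO minus Sox11cKO. Among probes well above background in every channel these shares were 1.57%, 0.989% and 0.0112%. At an unadjusted p below 0.05 there were 1, 5 and 5 of 8 genes, against 12.1%, 10.3% and 6.35% of all probes. Both contrasts with 5 genes use the same Sox11cKO arrays.

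*Gata3* had the lowest adjusted p in each contrast that involves Sox11cKO. Its log2 difference was -1.27 for dcKO minus Sox11cKO (SE 0.22, 95% confidence interval -1.79 to -0.75, adjusted p = 0.0710) and -1.62 for Sox4cKO minus Sox11cKO (SE 0.22, adjusted p = 0.125). Mean *Gata3* knockout levels were 8.31, 8.24 and 8.46 in dcKO, Sox4cKO and Sox11cKO cells. Their wild-type partners stood at 8.35, 8.64 and 7.23, and the part of these in the differences was not tested. Each difference passed in 3 of 14 other settings. In the authors' table these differences were -1.27 (adjusted p = 0.00984, with 2251 of 55681 probes called against 268 here) and -1.62 (adjusted p = 0.0176, with 253 probes called against 6 here). Without Sox11cKO replicate 1 the second difference was -1.39 (adjusted p = 0.0498, 847 probes called) and without replicate 2 it was -1.86 (adjusted p = 0.0302, 200 probes called), fits in which the other genotypes supply the spread of the lone Sox11cKO array.

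For *Klf5* the dcKO minus Sox4cKO difference was -1.05 (SE 0.30, 95% confidence interval -1.74 to -0.35, adjusted p = 0.203), and -1.05 in the authors' table (adjusted p = 0.0439), where 3056 of 55681 probes were called against 375 here. The mean *Klf5* knockout level was 10.31 in dcKO and 10.32 in Sox4cKO cells, and that of their wild-type partners 10.71 and 9.67. For *Klf4* the dcKO minus Sox11cKO difference was 0.78 (adjusted p = 0.244), and 0.78 in the authors' table (adjusted p = 0.0432), where 2251 probes were called. *Tfap2c* differed by 1.45 for both dcKO (adjusted p = 0.391) and Sox4cKO (adjusted p = 0.730) minus Sox11cKO. Without Sox11cKO replicate 1 those differences were 2.41 each, with adjusted p of 0.0133 and 0.0251, while calls over all probes rose from 268 to 2040 and from 6 to 847. They then rest on 1 Sox11cKO array, with a ratio of -1.65, and on the spread of the other genotypes.

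The closest relatives and other members of the same families were examined next, as 32 genes of which 19 were well above background in at least 6 of 12 channels. In Sox4cKO cells none passed the adjusted threshold, in Sox11cKO cells 1 was lower, in dcKO cells 2 were lower, and none was higher. Of all probes 0.176%, 0.124% and 2.06% passed, and of those well above background in every channel 0.326%, 0.14% and 4.76%. At an unadjusted p below 0.05 there were 8, 9 and 8 of the 32, against 7.4%, 6.84% and 13%. The median log2 ratio of the 32 genes was -0.04, -0.04 and -0.08 in Sox4cKO, Sox11cKO and dcKO cells. *Trp73*, *Grhl2*, *Ovol2* and *Tfap2a*, which belong to the families of *Trp63*, *Grhl1*, *Ovol1* and *Tfap2c*, were well above background in all 12 channels and did not pass in any genotype. Their log2 ratios ran from -0.79 to 0.92, both extremes being *Trp73*, at -0.79 in Sox4cKO (adjusted p = 0.533) and 0.92 in Sox11cKO cells (adjusted p = 0.402).

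*Gata6*, a GATA factor of the upper hair follicle and sebaceous duct, was the relative that passed in more than a single genotype. On Sox11cKO arrays it stood at 5.38 and 5.14 in knockout and 6.62 and 7.18 in wild-type channels, and neither knockout channel was well above background. It was therefore at least 3.12-fold lower at the offset used (adjusted p = 0.0327). The measured log2 ratio ran from -3.35 to -1.09 over 15 other settings, with the call kept in 4. Some of those settings called 0 probes in this comparison, as named above for *Gata3*. On dcKO arrays it stood at 6.11 and 4.99 beside 7.12 and 6.34, with 1 of 2 knockout channels well above background, and the log2 ratio was -1.18 (adjusted p = 0.0207). In Sox4cKO cells the ratios were 0.09 and 0.03, and on replicate 1 neither channel was well above background, so that array carries no comparison.

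*Klf6*, a widely expressed Krüppel-like factor, was lower in dcKO cells, at 11.70 and 11.55 beside 12.47 and 12.49, with a log2 ratio of -0.86 (adjusted p = 0.0371). These calls rested on few arrays. *Gata6* in dcKO cells lost its call without either dcKO array, at -1.13 without replicate 1 and -1.22 without replicate 2. *Gata6* in Sox11cKO cells lost its call without Sox11cKO replicate 2 (-1.34, adjusted p = 0.0725) and, at the same ratio of -1.64, without any single Sox4cKO array (adjusted p = 0.0507) or dcKO array (adjusted p = 0.0644). *Klf6* lost it without dcKO replicate 1 (-0.71), without dcKO replicate 2 (-1.01) and without either Sox4cKO array (-0.86, adjusted p = 0.0844).

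Of 26 other transcription factors known from the epidermis, 24 were well above background in at least 6 channels. In Sox4cKO cells 1 was higher, in Sox11cKO cells none passed, and in dcKO cells 2 were higher and 1 was lower. Beside these stand the same shares of all probes, and 0.326%, 0.14% and 4.76% of probes well above background in every channel. At an unadjusted p below 0.05 there were 7, 10 and 10 of the 26, against 7.4%, 6.84% and 13% of all probes. Medians of the log2 ratio were 0.04, -0.15 and -0.09. The AP-1 subunit gene *Fosl1* was higher in Sox4cKO cells, at 8.84 and 9.96 beside 7.95 and 8.37 (log2 ratio 1.24, adjusted p = 0.0422), and lower in dcKO cells, at 7.89 and 8.36 beside 9.80 and 9.90 (log2 ratio -1.72, adjusted p = 0.00345). Both arrays of each genotype had the sign of their mean. Wild-type *Fosl1* levels reached from 6.32 to 9.90 between arrays, a spread larger than either ratio.

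*Zfp750*, a target and partner of p63 that promotes terminal differentiation, was higher in dcKO cells, at 8.27 and 9.91 beside 7.37 and 8.71 (log2 ratio 1.05, adjusted p = 0.0258). Its ratio was 0.01 in Sox4cKO and 0.57 in Sox11cKO cells (adjusted p = 0.434). *Maf*, a bZIP factor of keratinocyte differentiation, was higher in dcKO cells, at 6.73 and 8.36 beside 5.61 and 6.55 (log2 ratio 1.46, adjusted p = 0.0182). Singled out after the values were seen, *Hopx*, which encodes a homeodomain protein of differentiating keratinocytes, had dcKO ratios of 2.99 and 2.53, with a mean of 2.76 (SE 0.71) that did not pass (adjusted p = 0.121), and *Vdr*, the vitamin D receptor gene, had a mean of 1.70 (adjusted p = 0.0923).

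Without dcKO replicate 1 the dcKO ratios were 1.12 for *Zfp750*, 1.69 for *Maf* and -1.89 for *Fosl1*, and without dcKO replicate 2 they were 0.98, 1.24 and -1.55, and each of these 6 values missed the threshold, with adjusted p from 0.0588 to 0.322. The Sox4cKO ratio of *Fosl1* missed it without Sox4cKO replicate 1 (1.32), without Sox4cKO replicate 2 (1.16) and without either dcKO array (1.24, adjusted p = 0.0587). Under median centring *Zfp750* was at 0.55 in dcKO cells (adjusted p = 0.108).

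**Figure D4:**
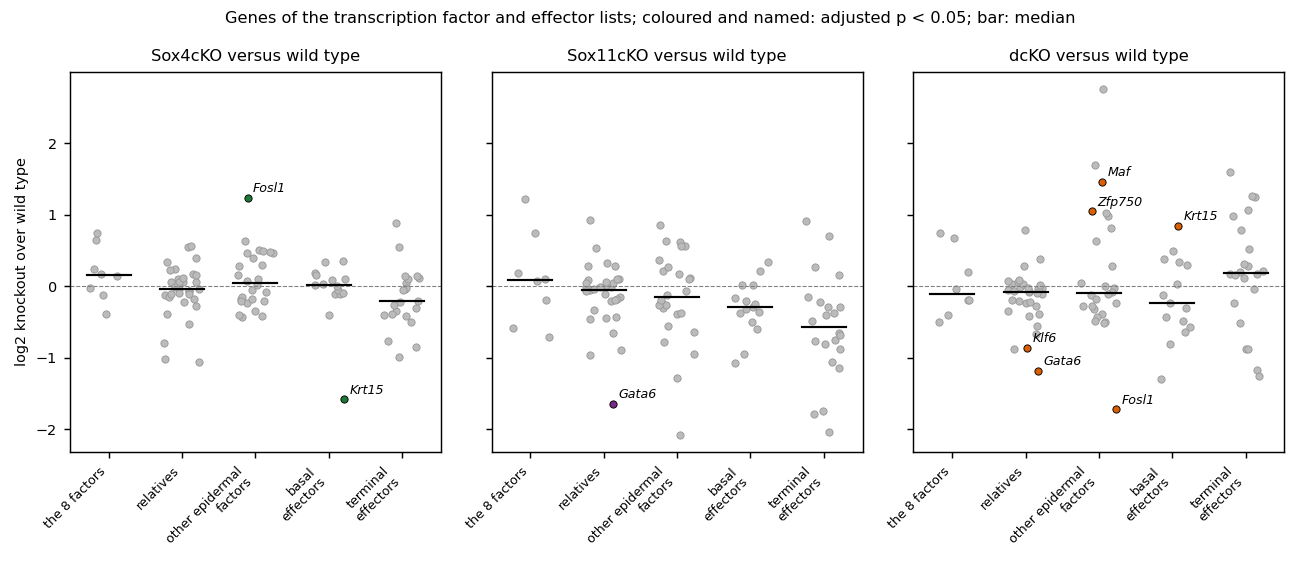
Log2 ratio of knockout over wild type (y axis) for the genes of 5 lists (x axis) in each genotype; each point is a gene by its brightest probe, horizontal bars are list medians, and coloured, named points had an adjusted p below 0.05. Named points occur among relatives, other factors and basal effectors, and none among the 8 factors or the 22 terminal effectors.

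Effector genes of the basal state and of terminal differentiation were counted in the same way. Whether the 8 factors act on them was not tested. The 15 basal effectors include keratins and integrins of the basal layer. Of them, 1 was lower in Sox4cKO, none passed in Sox11cKO and 1 was higher in dcKO cells, against 0.176%, 0.124% and 2.06% of all probes. The shares among probes well above background in every channel were 0.326%, 0.14% and 4.76%. At an unadjusted p below 0.05 there were 1, 4 and 6 of the 15, against 7.4%, 6.84% and 13%. The medians were 0.02, -0.28 and -0.24. The gene past the adjusted threshold in Sox4cKO and in dcKO cells was *Krt15*, a keratin of basal and hair follicle bulge cells. It stood at 8.16 and 6.17 beside 9.68 and 7.81 in Sox4cKO (log2 ratio -1.58, adjusted p = 0.0245) and at 7.05 and 7.53 beside 6.16 and 6.72 in dcKO cells (0.85, adjusted p = 0.0432). Wild-type *Krt15* levels reached from 5.68 to 10.59 between arrays, a spread larger than either ratio.

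The Sox4cKO ratio of *Krt15* missed the threshold without Sox4cKO replicate 1 (-1.70) and without Sox4cKO replicate 2 (-1.46). Its dcKO ratio missed it without dcKO replicate 1 (0.76), without dcKO replicate 2 (0.94) and without either Sox4cKO array (0.85, adjusted p = 0.0869), and it was 0.50 under median centring (adjusted p = 0.115). Of 23 terminal effectors, which build the cornified envelope and its lipids, 22 were matched to probes and 17 were well above background in at least 6 channels. None passed in any genotype, 3, 6 and 6 had an unadjusted p below 0.05 (7.4%, 6.84% and 13% of all probes), and the medians were -0.21, -0.57 and 0.19 in Sox4cKO, Sox11cKO and dcKO cells. These medians include dim genes.

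The genes whose 12 channel levels resembled those of each factor most closely were taken from 12003 named genes above background in at least 6 channels. Pearson r was 0.97 for *Klf4* with *Gclc* and for *Tfap2c* with *Chkb*. *Ovol1* was closest to *Matn4* (0.93), *Grhl1* to *Phospho2* (0.92) and *Klf5* to *Usp37* (0.91). *Grhl3* was closest to *Olfr441* (0.90), *Trp63* to *Akap10* (0.89) and *Gata3* to *Ttf2* (0.85). The genes in the second place were *Chl1* and *Cysrt1* (0.90 each) for *Klf4* and *Tfap2c*, A430005L14Rik (0.92) for *Ovol1*, *Krt80* (0.90) for *Grhl1*, *Mreg* (0.90) for *Klf5*, *Zranb3* (0.88) for *Grhl3*, *Plpp6* (0.88) for *Trp63* and *Smyd4* (0.83) for *Gata3*. The 12 channels share 6 arrays, and these are the highest values among many genes.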

How the data were processed

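The authors scanned the arrays and extracted linear spot intensity for each channel (Agilent Feature Extraction 11.0.1.1). Per the file headers, a processed signal and a log10 ratio of red over green were added by that software. A deposited table of the authors' log2 ratios had, per the study's methods, undergone normexp correction, loess and removal of a colour effect. Its columns correlated with knockout over wild type from the scanner files at 0.89 to 0.95 and had medians of -0.0066 to 0.0045.

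With R 4.3.3 and limma 3.58.1, median spot signals were corrected with normexp (offset 16). Of 62976 spots, 3671 control spots were left out, outlier spots were set to missing, and loess was applied within arrays. Ratios were turned as knockout over wild type and fitted over 6 arrays with genotype and dye terms, which left 2 residual degrees of freedom, to which eBayes added a prior of 5.37. P-values were Benjamini-Hochberg adjusted over 55681 probes. Channel levels were scaled between arrays with Aquantile, and only levels of the same probe are compared. The brightest probe stands for a gene.

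The knockout channel was Cy5 in replicate 1 and Cy3 in replicate 2 of each genotype, so the dye term is also a block on the replicate number; deviations of same-numbered arrays correlated at 0.316, 0.244 and 0.125. All arrays share 1 slide and scan. The members and lists were chosen with earlier results of these data known. The genes named were all 8 factors, 5 close relatives or partners, listed genes with an adjusted p below 0.05, and the 2 genes most alike per factor. *Hopx* and *Vdr* were named outside this rule after their values were seen. The fit was tested on simulated data. Probes were named by RefSeq accession through a GRCm38.p6 table (95.1% of 29786 matched). The array design was made on an older build, so no probe coordinates are given.

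Between 35.2% and 45.0% of probes were well above background in a channel, which limits precision for dim genes. Alternatives were another offset, the processed ratio, the authors' table, median centring, no dye term, prior dye subtraction, a filter on dim probes, each genotype alone, the mean of a gene's probes and leaving out each array.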

Additional observations from a re-analysis of the deposited data

Results flagged for a closer look

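The difference between genotypes passed an adjusted p below 0.05 (limma) for 2 genes of the context lists. *Fosl1* differed by -2.96 for dcKO minus Sox4cKO (adjusted p = 0.00535) and by -1.50 for dcKO minus Sox11cKO (adjusted p = 0.0399) on the log2 scale, and *Krt15* by 2.43 for dcKO minus Sox4cKO (adjusted p = 0.00917). These passed in 10, 4 and 8 of 14 other settings. All 3 missed the threshold with an offset of 50 (adjusted p from 0.0733 to 0.126) and with the processed ratio (0.234 to 0.279). Both settings called 0 of 55681 probes in either contrast, so no gene could pass there. With 1 array left out, the *Fosl1* difference from Sox4cKO missed it without Sox4cKO replicate 1 (-3.04) and replicate 2 (-2.88), its difference from Sox11cKO when any array other than Sox11cKO replicate 1 was left out (-1.67 to -1.33), and the *Krt15* difference when any single Sox4cKO or dcKO array was left out (2.31 to 2.55). Wild-type *Fosl1* stood at 7.95 and 8.37 on Sox4cKO, 9.84 and 6.32 on Sox11cKO and 9.80 and 9.90 on dcKO arrays. Its knockout levels there were 8.84 and 9.96, 9.26 and 6.46, and 7.89 and 8.36. Wild-type *Krt15* stood at 9.68 and 7.81 on Sox4cKO and 6.16 and 6.72 on dcKO arrays. The part of the wild-type channels in these differences was not tested. Among the 6 wild-type levels of each of the 8 factors, no single highest or lowest value stood apart by Dixon's criterion at the level used. The largest ratios of gap to range were 0.587 for the low *Klf4* value on dcKO replicate 1 and 0.552 for the low *Klf5* value on Sox4cKO replicate 2. The outcome for these depends on that level. Dixon's criterion does not single out 2 low values that lie together, as for *Gata3*. Knockout levels and ratios, with 2 arrays per genotype, were not tested in this way.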

How the results depend on the processing

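With 2 arrays per genotype and 17800 probes above background in every channel, changes below the intervals given could not be resolved. Of 360 values of the 8 factors recomputed under the alternatives (24 ratios), 340 kept their direction and side of the threshold, 5 passed the threshold anew and 15 turned sign. Mean spot signals, which had been named as an alternative, were not run; median signals were used throughout.

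The number of factors past the threshold, 0 in each of the 6 comparisons, became 1 (*Gata3*) in Sox11cKO with the authors' table or with the dye effect subtracted first, and 2 (*Trp63*, *Klf5*) in dcKO with median centring. It became 1 (*Klf5*) with the authors' table and 2 (*Trp63*, *Klf5*) with median centring for dcKO minus Sox4cKO. For dcKO minus Sox11cKO it became 2 (*Klf4*, *Gata3*), 2 (*Trp63*, *Gata3*) and 1 (*Gata3*) with the authors' table, median centring and dye subtraction. For Sox4cKO minus Sox11cKO it became 1 (*Gata3*) with the authors' table. Leaving out each array gave 0 to 1 in Sox11cKO, 0 to 1 for dcKO minus Sox11cKO (*Tfap2c*, without Sox11cKO replicate 1), 0 to 2 for Sox4cKO minus Sox11cKO, and 0 to 0 for the others. Calls over all 55681 probes rose in these settings too, from 69 to 533 in Sox11cKO, from 375 to 3056 for dcKO minus Sox4cKO and from 268 to 2251 for dcKO minus Sox11cKO with the authors' table, and from 1145 to 5483 in dcKO with median centring. The cause was not tested; median centring moved the median of bright probes to between -0.63 and 0.35 on the 6 arrays.

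Without the replicate block, which is the dye term, 0 factors passed in each of the 6 comparisons, with lowest adjusted p of 0.0978 in Sox11cKO and 0.122 for dcKO minus Sox11cKO; it ended the calls of *Klf6*, *Krt15* and *Gata6* in dcKO (adjusted p = 0.108, 0.0625 and 0.0568), *Gata6* in Sox11cKO (0.0963) and *Fosl1* in Sox4cKO (0.282).

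Signs turned for *Grhl3* in Sox4cKO with the processed ratio (0.055) and median centring (0.062), for *Klf4* in dcKO with median centring (-0.37) and for *Gata3* in dcKO with the processed ratio (0.0054). Leaving out each array gave ranges that crossed 0: in Sox4cKO, *Trp63* -0.244 to 0.0102, *Grhl1* -0.51 to 0.81, *Grhl3* -0.11 to 0.06 and *Tfap2c* -0.33 to 1.83; in Sox11cKO, *Klf5* -0.57 to 0.20, *Grhl1* -0.28 to 0.50, *Ovol1* -0.51 to 0.66 and *Tfap2c* -1.66 to 0.25; in dcKO, *Grhl3* -0.57 to 0.19, *Ovol1* -0.67 to 0.30 and *Gata3* -0.173 to 0.0926.

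All 9 calls of the context genes were lost with the processed ratio, which called 0 of 55681 probes in Sox4cKO, Sox11cKO and dcKO cells alike. With an offset of 50, 8 of them were lost, all but *Fosl1* in dcKO. That offset called 3, 0 and 188 probes in Sox4cKO, Sox11cKO and dcKO cells, against 98, 69 and 1145 here. Where a setting called 0 probes, the loss carries no information on a single gene. The counts that follow include both settings. Over 15 settings, chosen for these genes after seeing the data, a call was kept in 4 (*Gata6* in Sox11cKO) to 12 (*Fosl1* in dcKO).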
